A study of Mus musculus with 4 samples.

Results

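Decorin (Dcn), lumican (Lum), biglycan (Bgn), fibromodulin (Fmod), osteoglycin (Ogn), the fibulins Fbln1, Fbln2 and Fbln5, fibronectin (Fn1) and fibrillin 1 (Fbn1) are secreted proteins of the extracellular matrix. These 10 genes, of 19787 named on the array, were taken by an exact match of their symbols to the gene names in the scanner tables, which gave 18 probes. They were described in 4 mouse cell cultures, with 1 Agilent one-colour array for each, so no spread between cultures can be estimated and the number of arrays limits the precision.

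All cultures came from BALB/C bone marrow and were called dendritic cells (DCs) in the labels. The antibody-treated sDCs grew in the coculture described next, with a neutralizing antibody to IL-10 given each 2 days (10 µg/mL). The sDCs were lineage-depleted haematopoietic progenitors seeded on a monolayer of Sca-1+CD117-Lin- mesenchymal stem cells (MSCs), given lipopolysaccharide (LPS, a bacterial product that matures DCs) on day 4 at a dose that was not stated, and formed by day 9. The maDCs were purified imDCs kept 4 to 5 more days with 10 ng/mL of LPS. The imDCs were loosely adherent clusters from day 4 of culture with 10 ng/mL of GM-CSF and 5 ng/mL of IL-4, taken with magnetic beads against CD11c. The labels describe the sDCs as purified, but their separation from the MSCs is not described in them.

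Decorin, biglycan, lumican, fibromodulin and osteoglycin are small leucine-rich proteoglycans, which bind collagen and set the width and spacing of its fibrils. Fibulins and fibrillin build microfibrils and elastic fibres, and fibronectin is a dimer that cells pull into fibrils through integrins. Fibroblasts and other mesenchymal cells are the main makers of most of these proteins, while fibronectin is also made by macrophages, and bone marrow stroma lays them down around blood-forming cells.

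Levels are given as scaled intensity: a probe's background-subtracted intensity relative to the 75th percentile of its array, returned to a common scale. Differences are in log2 units. The lowest signal among probes marked well above background was 27.7 on the antibody-treated sDC array, 23.0 on the sDC array, 34.7 on the maDC array and 9.73 on the imDC array. Where only 1 side of a comparison was well above background, the difference is given as "at least", with the dim side at that lowest signal or at its own, whichever was higher. Medians of differences include such bounds as if they were measured. For probes spotted 10 times, spots differed by a median SD of 0.054, 0.056, 0.047 and 0.059 on those arrays, rising to 0.152, 0.128, 0.130 and 0.125 for probes below 100 in scaled intensity. This spread covers spotting and scanning only. The imDC array was on another slide and scan than the other 3, so slide and culture cannot be told apart in comparisons with imDCs.

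The cultures were first checked against marker lists. Of all 15034 genes with a value, 25.3% were at least 2-fold higher in sDCs than in imDCs and 16.2% lower, for comparison with each list. Of 16 DC markers, 13 were at least 2-fold lower in sDCs than in imDCs and 1 was higher, with a median of -4.33; Itgax, which encodes CD11c, had 498 in sDCs and 11551 in imDCs, and Irf4, Cd209a and Clec9a were not well above background in sDCs. The MHC class II genes H2-Aa and H2-Eb1 and their regulator Ciita differed by -6.996, -6.38 and -5.81. All 16 macrophage markers were at least 2-fold higher in sDCs than in imDCs (median 4.62, or 3.63 over measured differences alone). Among them, Folr2, a folate receptor, differed by at least 11.00, F13a1 by 8.60, C1qc by 6.98 and Apoe by 6.21. Of 23 mesenchymal stromal markers with a value, 18 were at least 2-fold higher in sDCs and 2 lower (median 4.21, or 3.90 over measured differences alone). Among the higher were Col3a1 (at least 12.05), Sparc (7.55) and Col6a1 (at least 7.20), and the lower were Thy1 (-2.03) and Vcam1 (-1.56). Alpl was not well above background on any array and Lepr was not in sDCs. Leukocyte RNA was abundant on each array: the 8 pan-leukocyte markers had a median difference of 0.26 between sDCs and imDCs. The imDC array also carried a strong neutrophil signal. Of 12 neutrophil markers, 11 were at least 2-fold lower in sDCs than in imDCs and 1 was higher (median -6.35). Their summed level was 393199 in antibody-treated sDCs, 223835 in sDCs, 170287 in maDCs and 1836330 in imDCs.

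Every member was well above background in antibody-treated sDCs and in sDCs, against 7 in maDCs and 8 in imDCs. The sDC comparison with imDCs showed 10 of 10 members at least 2-fold higher, where 25.3% of all 15034 genes with a value were higher by that much. The members' median difference was 5.36, beside 0.21 over all genes. Against maDCs, 10 of 10 were again at least 2-fold higher in sDCs, beside 14.2% of 14600 genes, with a median of 4.31 against 0.03. Over measured differences alone, the members' medians were 5.28 against imDCs and 4.77 against maDCs. After normexp background correction with an offset, which shrinks differences from dim probes, the medians were 3.57 and 3.32 and all 10 members stayed past 2-fold in both comparisons. Summed over the members, the level was 35956 in antibody-treated sDCs, 66621 in sDCs, 1222 in maDCs and 459 in imDCs. The stromal markers' summed level did not follow this order. It was 217001 in antibody-treated sDCs, 352840 in sDCs, 230905 in maDCs and 251644 in imDCs. The maDC and imDC sums rest largely on Thy1, with 20605 in antibody-treated sDCs, 39624 in sDCs, 149502 in maDCs and 161669 in imDCs, and on Acta2, whose representative probe differed by -0.85 between sDCs and imDCs while its other 3 measured probes differed by 1.45 to 4.91. The fibrillar collagen gene Col1a1 had 41025, 71441, 234 and 250. Whether stromal cells carried over from the monolayer gave part of the members' signal was not tested, and in bulk RNA more cells of a type cannot be told apart from more RNA per cell.

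**Figure D1:**
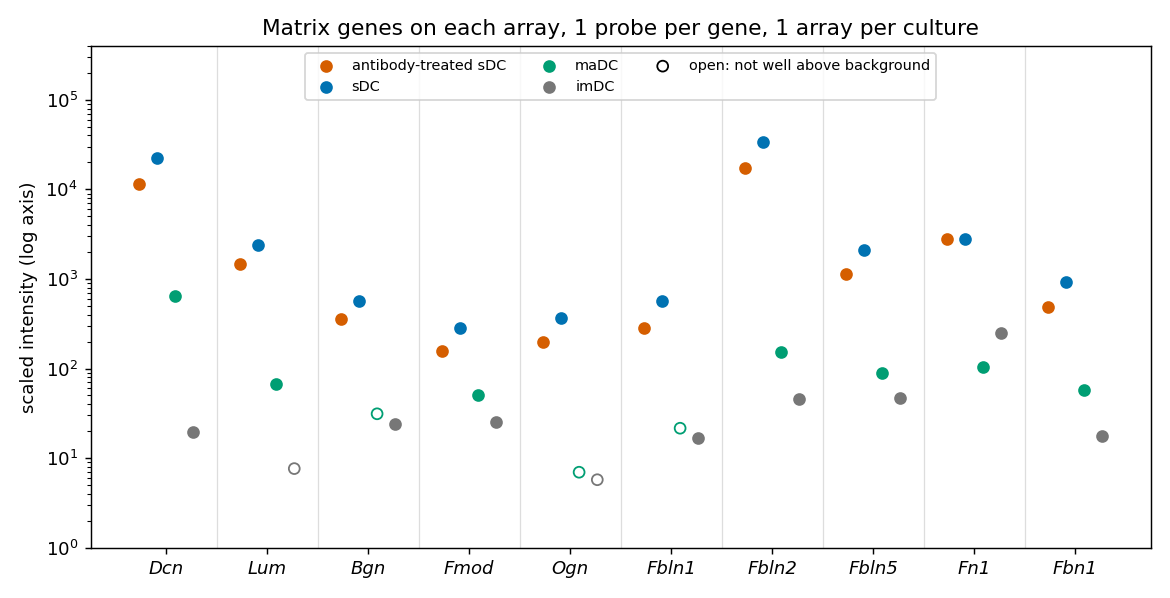
Scaled intensity (log axis) of 1 probe for each of the 10 matrix genes on the antibody-treated sDC, sDC, maDC and imDC arrays, 1 point per array; open points were not well above background. Both sDC points lie above the maDC and imDC points for every gene, and the antibody point lies below the sDC point except at Fn1, where they coincide.

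Among the small leucine-rich proteoglycans, Dcn had the widest range. Decorin carries 1 glycosaminoglycan chain and binds type I collagen and TGF-beta. Its probe at chr10:96980233-96980292 (mm9, plus strand) had 11528 in antibody-treated sDCs, 22580 in sDCs, 641 in maDCs and 19.8 in imDCs. The level in sDCs was 1140-fold that in imDCs (10.15 in log2) and 35.2-fold that in maDCs (5.14). The imDC signal was low, and with normexp the difference from imDCs was 8.25. Dcn was also higher in maDCs than in imDCs, by 5.02. A second Dcn probe, at chr10:96943347-96943406, was not well above background on any array.

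Lumican is a keratan sulphate proteoglycan of collagenous tissues, and its gene lies next to Dcn in the RefSeq order. Lum (probe at chr10:97035210-97035269) had 1481 in antibody-treated sDCs, 2397 in sDCs, 67.3 in maDCs and 7.63 in imDCs, where it was not well above background. It was 35.6-fold higher in sDCs than in maDCs (5.15) and at least 246-fold higher than in imDCs (7.94). Dcn and Lum thus stood nearly the same distance above maDCs. The next genes along, Kera and Epyc, which encode the corneal and cartilage proteoglycans keratocan and epiphycan, were not well above background on any array.

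Biglycan, the closest relative of decorin, can signal through TLR2 and TLR4 once it is free of the matrix. Bgn (probe at chrX:70738554-70738613) had 354 in antibody-treated sDCs, 567 in sDCs, 31.2 in maDCs and 24.3 in imDCs. The maDC value was not well above background although it was the higher of the last pair; the lowest signal well above background was higher on the maDC array. The sDC level was 23.3-fold that in imDCs (4.55) and at least 16.3-fold that in maDCs (4.03). The other Bgn probe, at chrX:70737025-70737084, was dim on all arrays, so Bgn rests on a single probe.

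Fibromodulin and osteoglycin were measured in both stromal cultures. Fmod (probe at chr1:135943998-135944057), which guides collagen fibril assembly, had 157 in antibody-treated sDCs, 283 in sDCs, 50.4 in maDCs and 25.1 in imDCs. It had the smallest sDC differences of the proteoglycans, 3.50 against imDCs and 2.49 against maDCs. Ogn (probe at chr13:49719549-49719608), a small proteoglycan first purified from bone, had 199.7 and 366 in antibody-treated sDCs and sDCs, and was not well above background in maDCs (6.96) or imDCs (5.74). Its sDC level was at least 10.5-fold that in maDCs (3.40) and at least 37.6-fold that in imDCs (5.23).

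The probes of Dcn and Bgn, shown because 1 probe carries each result, read as follows, 5′ to 3′, all in lower case as no part is marked.
Dcn, A_51_P334104: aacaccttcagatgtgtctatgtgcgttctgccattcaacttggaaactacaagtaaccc
Bgn, A_52_P162486: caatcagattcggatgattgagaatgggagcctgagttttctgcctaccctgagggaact

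Of 12 other small leucine-rich proteoglycans, 7 had a value for sDCs against imDCs and 4 of these were at least 2-fold higher, with a median of 1.19. Prelp, the neighbour of Fmod, had 746 in antibody-treated sDCs, 1385 in sDCs, 17.8 in maDCs (dim) and 23.9 in imDCs, a difference of 5.86 between sDCs and imDCs. Aspn, which with Omd and Ecm2 lies beside Ogn, was at least 4.91 higher in sDCs than in imDCs. Omd and Ecm2 were dim on all 4 arrays. Genes well above background in sDCs thus lay next to genes with no measurable signal on chromosomes 10 and 13.

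The fibulins were likewise highest in sDCs. Fibulin 2 joins basement membranes and elastic fibres. Fbln2 (probe at chr6:91222118-91222177) had 17554 in antibody-treated sDCs, 34018 in sDCs, 154 in maDCs and 46.2 in imDCs. It was 737-fold higher in sDCs than in imDCs (9.52) and 220-fold higher than in maDCs (7.78), the largest of the members' differences from maDCs. In maDCs it was 3.34-fold the imDC level (1.74).

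Fibulin 1 binds fibronectin and elastic fibres. Its probe at chr15:85115998-85116057 had 286 in antibody-treated sDCs, 573 in sDCs, 21.6 in maDCs (dim) and 16.9 in imDCs, a difference of 5.08 between sDCs and imDCs. The second Fbln1 probe, at chr15:85115854-85115914, gave 259 and 473 in the stromal cultures and was dim in maDCs (10.6) and imDCs (8.66). Both probes placed sDCs well above the other cultures, the second by at least 5.60 over imDCs.

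Fibulin 5 tethers elastin to microfibrils and to integrins. Fbln5 (probe at chr12:102988189-102988248) had 1141 in antibody-treated sDCs, 2110 in sDCs, 88.8 in maDCs and 47.2 in imDCs, differences of 5.48 from imDCs and 4.57 from maDCs for sDCs. The maDC and imDC levels were within 2-fold of each other (0.91). Its other 2 probes were dim on every array.

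Fibrillin 1 forms the microfibril backbone on which elastin is laid. Fbn1 (probe at chr2:125126727-125126786) had 484 in antibody-treated sDCs, 918 in sDCs, 57.1 in maDCs and 17.7 in imDCs. The sDC differences were 5.70 from imDCs and 4.01 from maDCs. A second probe, at chr2:125127254-125127313, was measured in the stromal cultures alone, at 76.1 and 150, and was at least 3.95 higher in sDCs than in imDCs.

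Of 20 other elastic fibre and microfibril genes with a value, 16 were at least 2-fold higher in sDCs than in imDCs and none was 2-fold lower, with a median of 3.34. Loxl1 and Lox, which cross-link elastin and collagen, differed by 8.06 and 6.66, and Mfap2, a microfibril protein, by 6.49 (2.01 at its other measured probe). Ltbp2, a protein that binds fibrillin, differed by 6.42. Elastin itself (Eln), read by 1 probe, had 53.5 in antibody-treated sDCs, 52.8 in sDCs, 57.4 in maDCs and 45.3 in imDCs. The probe thus showed no such rise in sDCs, but a single probe with low signal cannot show how far elastin differed. Lox was also 5.02 higher in maDCs than in imDCs, close to the Dcn difference in that comparison.

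Fibronectin ordered the arrays differently. Its main probe, printed at 10 spots and spanning an intron at chr1:71637422-71639659 (mm9, minus strand), had 2772 in antibody-treated sDCs, 2810 in sDCs, 103 in maDCs and 248 in imDCs. The sDC level was 11.3-fold that in imDCs (3.50) and 27.3-fold that in maDCs (4.77). Among the 7 members with a value for maDCs against imDCs, Fn1 was the only one that was lower in maDCs, by a log2 difference of -1.27. The SD between its spots was 0.036, 0.040, 0.074 and 0.050 on the 4 arrays in that order.

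Fn1 is read by 3 probes at separate places in the gene, shown because their agreement bears on the antibody result below. The first and last cross an intron, spanning 2238 and 759 bases of genome for 60 bases of probe.
Fn1, A_51_P100856, chr1:71637422-71639659: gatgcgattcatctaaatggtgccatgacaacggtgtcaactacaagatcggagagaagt
Fn1, A_52_P11817, chr1:71644127-71644186: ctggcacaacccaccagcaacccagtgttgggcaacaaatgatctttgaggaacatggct
Fn1, A_52_P299974, chr1:71673888-71674646: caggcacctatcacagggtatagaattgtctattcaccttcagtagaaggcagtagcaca
The second probe had 380 in antibody-treated sDCs, 353 in sDCs, 28.9 in maDCs (dim) and 57.1 in imDCs. The last had 106 and 108 in the stromal cultures and was dim in maDCs (7.06) and imDCs (7.83). All 3 probes were higher in sDCs than in imDCs, by 3.50, 2.63 and at least 3.47.

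**Figure D2:**
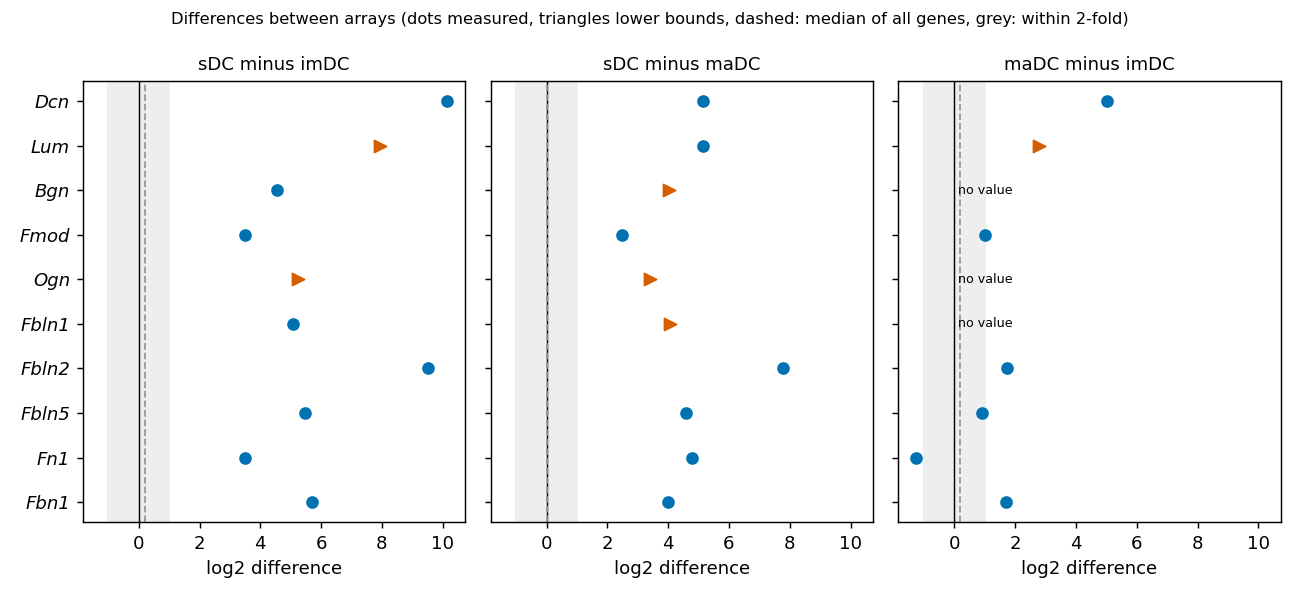
Log2 differences of the 10 genes for sDC minus imDC, sDC minus maDC and maDC minus imDC; dots are measured on both arrays, triangles are lower bounds, grey marks less than 2-fold and the dashed line is the median of all genes. All points of the first and second panel lie right of the grey band, while in the third Fn1 lies left of it and 3 genes have no value.

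Fewer members could be compared between LPS-matured DCs and imDCs. Of 7 with a value, 5 were at least 2-fold higher in maDCs, where 21.5% of 14109 genes were higher, and 1 was lower, where 10.8% were lower. Stromal markers were less uniform in that comparison, with 6 of 18 at least 2-fold higher, 1 lower and a median of 0.19. The 5 members were Dcn, Lum (at least 2.79), Fbln2, Fbn1 (1.69) and Fmod (1.01), and the lower gene was Fn1. Scaling matters most here. The median over all genes was 0.18 as scaled and 0.02 after quantile normalization, under which Fmod differed by 0.57. With normexp, Fmod (0.79), Fbn1 (0.90) and Fn1 (-0.78) fell short of 2-fold. Of all genes past 2-fold, 66.5% were higher as scaled and 56.4% with the authors' deposited values. Probes that were not well above background had a median scaled intensity of 8.18 in maDCs and 2.59 in imDCs, and how far this raised the low values of Fmod, Fbln5 and Fbn1 was not tested.

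The integrins and other receptors for these proteins did not move as a group. Of 13 with a value, sDCs had 7 at least 2-fold above imDCs and 2 below (median 1.45), beside 25.3% and 16.2% of all genes. Itga8 encodes the alpha chain of a fibronectin receptor of mesenchymal cells. It had 8007 in antibody-treated sDCs, 8665 in sDCs, 8.40 in maDCs (dim) and 14.2 in imDCs. The difference between sDCs and imDCs was 9.25. The other 2 Itga8 probes with a value differed by at least 2.63 and by 8.37. Itga9 was at least 6.80 higher in sDCs and Itgb5, which pairs with the alpha v chain, 3.69 higher. Itgb3, the beta chain of the vitronectin receptor, differed by -2.41 from imDCs and -2.85 from maDCs at its representative probe, but its other measured probe differed by 2.66 and 0.23, so Itgb3 has no settled direction.

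Genes for the glycosaminoglycan chains that decorin and biglycan carry were measured in all cultures for 17 of 18. In sDCs 6 of 17 were at least 2-fold above imDCs and 2 below (median 0.68), not far from the 25.3% and 16.2% of all genes. Xylt2, a xylosyltransferase that starts the chain, differed by 5.35 and Ust, a uronyl sulphotransferase, by 2.89 at 1 probe and 0.005 at its other measured probe. Dse, a dermatan sulphate epimerase, differed by 1.99. Chst11, a chondroitin sulphotransferase, and Csgalnact1, which begins chondroitin chains, were lower, at -2.16 and -1.34. Among 18 other proteoglycans of the matrix and cell surface with a value, 14 were at least 2-fold higher in sDCs and 1 lower (median 1.60). The basement membrane proteoglycan gene Hspg2 differed by 5.29 and the glypicans Gpc4 and Gpc3 by 5.16 and 4.44. The syndecan Sdc3 differed by 4.44 at its representative probe, but by 1.01 and 1.73 at its other 2 probes. Gpc1 was 2.43 lower on the log2 scale, with 3475 in sDCs and 18670 in imDCs.

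The last comparison asked how sDCs formed with IL-10 neutralized differed from sDCs, on arrays that shared a slide. All 10 members were below 0 in this comparison, as were 58.3% of all 14389 genes with a value. Only Fbln1 reached 2-fold, at 49.9% of the sDC level, where 1.27% of genes were lower and 0.855% higher by that much, and this count was 0 when outlier spots were kept. At 1.5-fold, a size chosen after the data were seen, 9 of 10 members were lower, where 5.43% of all genes were lower and 2.08% higher. The members' median was -0.88, beside -0.03 over all genes.

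The 9 genes other than Fn1 lay close together, with levels in antibody-treated sDCs between 49.9% (Fbln1) and 62.5% (Bgn) of those in sDCs. Dcn stood at 51.1% (-0.97), Fbln2 at 51.6% (-0.95) and Fbn1 at 52.7% (-0.92). Fbln5 stood at 54.1% (-0.89), Ogn at 54.6% (-0.87), Fmod at 55.4% (-0.85) and Lum at 61.8% (-0.69). Each of these 9 differences lay among the lowest 4.37% of all genes, below the 5th percentile of -0.63. They were several times the SD between spots of a probe, but the spread between cultures is not known.

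Fn1 did not share this difference. Its 3 probes stood at 98.7%, 108% and 97.9% of the sDC level (-0.02, 0.11 and -0.03), and its main probe lay at the 53.0 percentile of all genes. For that probe the difference was smaller than the SD between its own spots. The second probes of Fbln1 and Fbn1 stood at 54.8% and 50.6%, near the first, so in each of the 3 genes with several measured probes the probes gave similar values.

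**Figure D3:**
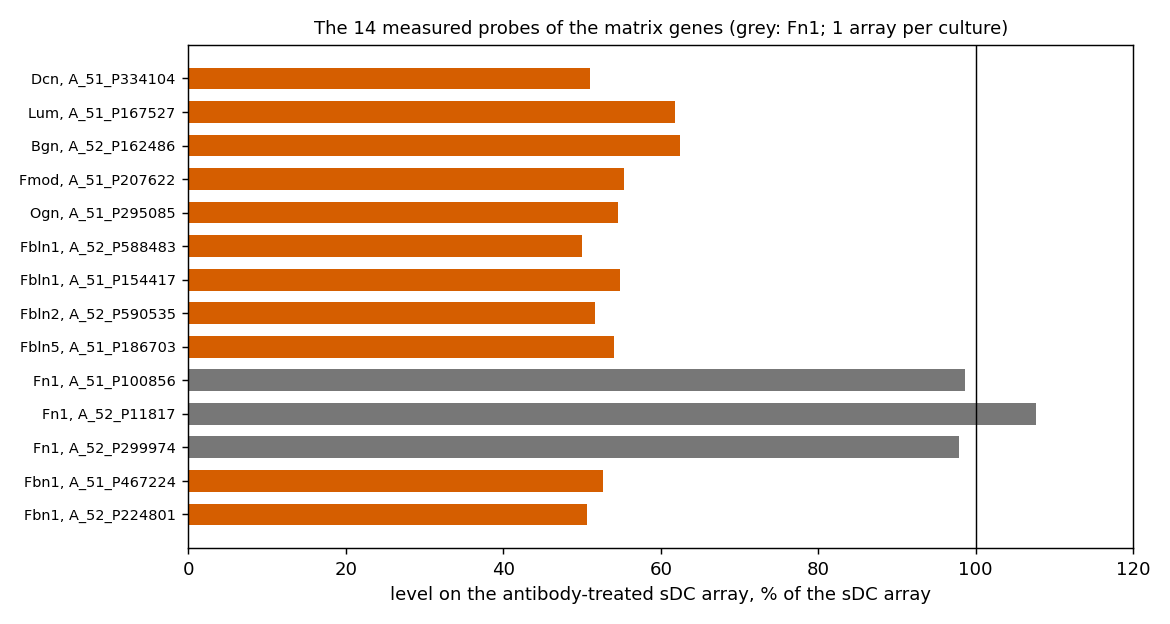
Level on the antibody-treated sDC array as a percent of the sDC array (linear axis from 0) for each of the 14 probes measured on both arrays, named by gene and probe; bars are single array pairs. The 3 grey Fn1 bars end near 100%, and the other 11 bars end between 49.9% and 62.5%.

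Genes of the same fibres differed alike in part. Of 20 other elastic fibre and microfibril genes, 9 were at least 1.5-fold lower in antibody-treated sDCs, with a median of -0.49, and Efemp1 (-1.27) and Mfap5 (-1.12) passed 2-fold. Efemp1 encodes fibulin 3, and Mfap5, named after its value was seen, a microfibril glycoprotein. Prelp, next to Fmod, and Aspn, the second gene from Ogn, differed by -0.89 and -0.86. Hspg2 (-0.86) and Gpc4 (-0.84) were lower by a similar amount, while Lox differed by -0.48, Xylt2 by -0.24, Itga8 by -0.11 and Eln by 0.02.

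The marker lists differed in direction, and the stromal list lay nearest to the members. Of 22 mesenchymal stromal markers, 18 were at least 1.5-fold lower in antibody-treated sDCs and 3 at least 2-fold lower (Postn -1.09, Vcam1 -1.01 and Snai2 -1.001), with a median of -0.77. The list's summed level was 61.5% of that in sDCs, and its fibrillar collagens Col1a1, Col1a2 and Col3a1 differed by -0.80, -0.84 and -0.99. Of 16 macrophage markers, 3 were at least 1.5-fold lower, and these were the complement genes C1qa (-0.86), C1qb (-0.66) and C1qc (-0.95), with a list median of -0.19. The 8 pan-leukocyte markers had a median of -0.03 and none was 1.5-fold lower. All 12 neutrophil markers were above 0, 6 of them at least 2-fold higher (median 1.002), with a summed level of 393199 in antibody-treated sDCs and 223835 in sDCs. The part of these cell types in the members' difference was not tested.

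**Figure D4:**
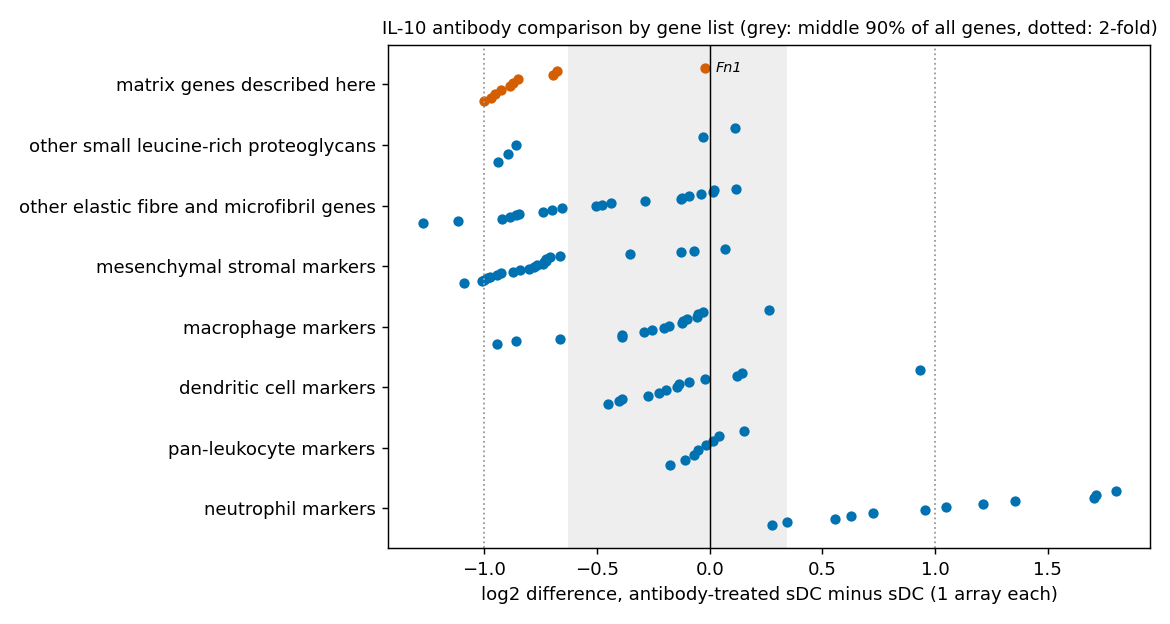
Log2 differences, antibody-treated sDC minus sDC, of the 10 matrix genes (orange) and 7 other gene lists (blue), 1 point per gene measured on both arrays; grey spans the 5th to 95th percentile of all genes and dotted lines mark 2-fold. The matrix genes other than Fn1 lie left of the grey band with most stromal markers, pan-leukocyte markers lie within it, and the neutrophil markers, all above 0, lie to its right except for S100a8 (0.28).

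For the 6 members well above background on all 4 arrays, the most similar genes were sought among 12940 genes measured likewise, by the root mean square distance between log2 profiles centred on their means. With 4 arrays this is a description only. Nearest to Fbn1 were P3h4 (0.12), a collagen-modifying complex member, C1qa (0.13) and Fgf7 (0.13), a growth factor of mesenchymal cells. Fbln5 lay nearest to Hspg2 (0.15), C1qa (0.16) and P3h4 (0.18), and Fmod to Syt13 (0.09), Efs (0.12) and C1qb (0.12). Fbln2 was followed at a greater distance by F13a1 (0.49), Col1a1 (0.68) and Ccn2 (0.69). Dcn had only Rarres2, which encodes chemerin, at 0.45, with Pid1 at 1.02 and Fabp7 at 1.07. Nearest to Fn1 were Plxdc1 (0.21), Zranb3 (0.22) and Klra2 (0.23), none of them among the nearest 3 of the other 5 members compared. Lum, Bgn, Ogn and Fbln1 were not compared in this way.

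The members' shared direction raised the question of what their start regions share. RefSeq promoter sequences (GRCm38.p6) were matched for Bgn, Fmod, Ogn, Fbln1, Fbln2, Fbln5 and Fbn1, and the 250 bases before each start were searched on both strands. The motifs were the TATA box (TATAAA), the CCAAT box (CCAAT), the GC box (GGGCGG), the AP-1 site (TGANTCA) and the CRE (TGACGTCA), which 12.4%, 33.8%, 32.7%, 6.75% and 1.55% of 32851 promoters hold. The GC box was found in Bgn, Fbln2, Fbn1, 1 of 2 Fbln1 starts and 1 of 2 Fbln5 starts, and not in Fmod or Ogn. The TATA box letters were found in Ogn, in 2 overlapping matches on opposite strands, and the CCAAT box in the first Fbln5 start, and neither in the others. No start held the AP-1 or CRE letters. Bgn with 3 GC boxes (the last pair overlapping), Fbln2 with 1 and Fmod with none are shown to span this range, with GC boxes in capitals. The capitals read CCGCCC on the gene's strand, so each match to GGGCGG lies on the opposite strand. The 3 genes themselves lie on the plus strand.
Bgn, chrX:73483351-73483600: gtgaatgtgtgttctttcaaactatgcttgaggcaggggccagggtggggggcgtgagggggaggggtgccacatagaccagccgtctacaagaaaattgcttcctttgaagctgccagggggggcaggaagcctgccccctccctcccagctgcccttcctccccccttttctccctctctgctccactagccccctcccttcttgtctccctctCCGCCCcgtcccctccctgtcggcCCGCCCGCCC
Fbln2, chr6:91212514-91212763: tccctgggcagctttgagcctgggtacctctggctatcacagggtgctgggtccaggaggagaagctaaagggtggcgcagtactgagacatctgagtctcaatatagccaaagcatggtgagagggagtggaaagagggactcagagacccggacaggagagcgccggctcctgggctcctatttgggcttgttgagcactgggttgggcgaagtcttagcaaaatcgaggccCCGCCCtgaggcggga
Fmod, chr1:134037004-134037253: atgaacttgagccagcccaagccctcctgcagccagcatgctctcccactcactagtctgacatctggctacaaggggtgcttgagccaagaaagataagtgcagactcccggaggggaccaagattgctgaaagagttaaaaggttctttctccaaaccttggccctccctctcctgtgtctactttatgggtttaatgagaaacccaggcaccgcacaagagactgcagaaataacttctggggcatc
Bgn is rich in G and C (64.4%), Fbln2 less so (58.8%) and Fmod least of the 3 (51.2%). All 3 genes were higher in sDCs than in maDCs and imDCs, and lower in antibody-treated sDCs than in sDCs. A match is a description of the letters and not of a bound site.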

How the data were processed

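For each array the authors deposited a scanner table of background-subtracted intensity values, made per the file headers with Agilent Feature Extraction 10.5.1.1 (the submitters' processing notes name 9.1), with probe positions in mm9. The authors also deposited a table of log2 values; across probes, the columns correlated with log2 intensity at 0.997 or more, and all had a median of 6.30. Genes were not centred in it.

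Each array held 43379 non-control spots for 41174 probes, and 61.2% to 69.7% of spots were well above background. Outlier spots (76 to 148 per array) were left out, no spot was saturated (0), and spots of a probe were averaged. The 75th percentile of log2 intensity was subtracted per array. A probe counted as well above background with at least 50% of its spots marked so. Probes were named through RefSeq (GRCm38.p6, names only): 25097 by accession, 6333 by symbol, 1640 by synonym and 8104 not at all. The probe with the highest mean stood for its gene.

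With 1 array per culture no test was possible: genes were counted past 2-fold, and no p-value is given. Normexp used limma 3.58.1 in R 4.3.3; the rest used Python 3.11.15. The counting was tested on simulated data. The members and gene lists were chosen with earlier results of these data known. Genes named are all members, genes among the 4 largest differences of a list between sDCs and imDCs or maDCs, genomic neighbours and the 3 most similar profiles; not every gene that qualified is printed. Itgax, Cd209a, Clec9a, Alpl, Lepr, Thy1, Acta2, Eln, Mfap5, Postn, Vcam1, Snai2 and S100a8 are outside that rule and were chosen after their values were seen. Alternatives tried were quantile normalization, normexp background correction, the authors' values, 2 filters on dim probes, the median over probes and keeping outlier spots. Exon, intron and UTR placement of the probes was not analysed here.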

Additional observations from a re-analysis of the deposited data

How the results depend on the processing

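Over the 7 alternative settings, all 66 member values for sDCs against imDCs and all 66 against maDCs kept their sign and stayed past 2-fold. For maDCs against imDCs all 48 kept their sign and 42 their side of 2-fold; for antibody-treated sDCs against sDCs all 66 kept their sign and 61 their side. Where values changed, the cause was not tested, except that fewer genes are tested with probes well above background on all 4 arrays. No paired analysis was possible because each culture had 1 array, and the slide could not be a block for the same reason.

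With normexp, the members' medians were -0.72 (antibody-treated sDC minus sDC), 0.90 (maDC minus imDC), 3.57 (sDC minus imDC) and 3.32 (sDC minus maDC); 3 members were 2-fold higher and 0 lower in maDCs than in imDCs. With quantile normalization the last 3 medians were 1.27, 5.04 and 4.38, and with the authors' values 1.21 and 4.90 for maDCs and sDCs against imDCs. With no filter they were 0.96, 5.59 and 4.75, and with probes measured on all arrays 1.35, 5.59 and 4.67, where 6 of 6 members were 2-fold higher in sDCs in both comparisons. The median over a gene's probes gave 3.97 for sDCs against maDCs, and 0 members 2-fold lower in maDCs than in imDCs.

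The single 2-fold call in the antibody comparison was unstable. The count was 2 with the authors' values, and 0 with probes measured on all arrays, with the median over probes and with outlier spots kept, against 9 at 1.5-fold.

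Counts over all genes moved in the antibody comparison, to 45 higher and 47 lower with normexp, 47 and 66 with probes measured on all arrays, and 309 and 587 with no filter, against 123 and 183. With no filter, 6193 genes were higher in maDCs and 6123 in sDCs than in imDCs. Signal near background limits the low values: all members except Fn1, Fbln2 and Fbln5 were at 25.1 or lower in imDCs.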

Other observations

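The scanner tables also hold 2 probes named by clones and not by a member's symbol. The probe of clone BC010335, annotated as a chimeric fibronectin cDNA clone, had 5124 in antibody-treated sDCs, 5028 in sDCs, 217 in maDCs and 192 in imDCs, differences of 0.03 for antibody-treated sDCs against sDCs and 4.71 for sDCs against imDCs. Like the Fn1 probes it differed little with the antibody. Between maDCs and imDCs it differed by 0.18, where the main Fn1 probe differed by -1.27. The probe of clone AK082039, annotated as fibrillin 1, was not well above background on any array.

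Endothelial markers did not follow the matrix genes. Of 9 with a value, 2 were at least 2-fold higher in sDCs than in imDCs and 3 lower (median -0.03), beside 25.3% and 16.2% of all genes. Kdr, a VEGF receptor, differed by 4.06 and Pecam1 by -4.74. In antibody-treated sDCs against sDCs the list's median was -0.13 with none of 5 past 2-fold.

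Among mast cell and basophil markers, 8 of 8 were at least 2-fold higher in maDCs than in imDCs (median 3.11), beside 21.5% of all genes. Dcn and Lum were also higher in that comparison, and a link between them and these markers was not tested. Cpa3, a mast cell protease, had 95892 in maDCs and 8269 in imDCs, and 37.5 in sDCs.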
